A study of Mus musculus with 2 samples.

Results

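The genes of sterol synthesis and of fatty acid synthesis were compared between epidermis of mice lacking the vitamin D receptor (VDR) and the calcium-sensing receptor (CaSR) in keratinocytes and epidermis of control mice. The members were a list of 37 genes, 20 of the sterol branch and 17 of the fatty acid branch, and every probe of the array named for a listed gene or for its older alias was taken, which gave 45 probes of 25697 for genes among 17872 on the array. Both groups were C57BL6 mice at postnatal day 5 with the genotype VDR fl/fl CaSR fl/fl. The control group, CON, were littermates for which no Cre is listed. The knockout group, DKO, carried in addition a Cre recombinase driven by the K14 promoter, which is active in basal keratinocytes and their descendants, so other cells of the epidermis keep both genes. In its sentence on combining RNA the protocol names a VDR knockout group, whereas the rest of the protocol, the title and the genotype give the double knockout, which was followed here. Dispase was used to lift epidermis from dermis of back skin, and RNA of 3 mice was combined into 1 sample per group. There was 1 array per group. No test between groups was possible, no p-value is given, and each difference below compares these pools only.

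Cholesterol is built from acetyl-CoA through mevalonate, squalene and lanosterol, and fatty acids are built from acetyl-CoA through malonyl-CoA and then elongated and desaturated. The transcription factors SREBP-2 (gene Srebf2) and SREBP-1 (gene Srebf1) drive the genes of both branches, SREBP-2 mainly those of sterol synthesis and SREBP-1c mainly those of fatty acid synthesis, and sterols hold both factors in the endoplasmic reticulum through the Insig proteins. In the epidermis both branches feed the lipids between cells of the stratum corneum, where cholesterol, free fatty acids and ceramides form the permeability barrier, and sebaceous glands use the same enzymes to make sebum.

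A probe was called detected where its detection p-value, which sets its signal against negative controls of the same array, was under 0.01. This held for 41.9% of probes in CON and 40.6% in DKO. Signals are background-corrected, quantile-normalized log2 values, a difference is DKO minus CON on that scale, and a gene is given by its brightest probe. Detected keratinocyte markers were 10 of 11, with a summed linear signal of 102800 in CON and 103329 in DKO. The sum is carried by the brightest markers, such as Krt14, which read 14.28 on both arrays. Single markers moved both ways, 4 higher and 5 lower, from Flg2 at -0.66 to Krt1 at 0.64. The 3 probes of Vdr differed by -0.12, -0.24 and -0.82, and the single probe for Casr did not stand well above background in either group. The files do not place these probes inside or outside the deleted exons, so they do not check the labels. Sex-linked transcripts also differed between the pools. Ddx3y, a Y-linked gene, read 6.89 in CON and 10.31 in DKO, and the Xist probes differed by -0.24 and -1.21.

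Of the 37 members, 28 were detected on at least 1 array. The tables used here held no probe for Mvk, Fdft1, Tm7sf2 and Acacb. Probes of 5 members did not stand well above background in either group. They were Sc5d, a late enzyme of cholesterol synthesis, Fasn, the fatty acid synthase itself, the desaturases Scd3 and Fads2, and Thrsp, a regulator of lipogenesis. Fasn read a raw signal of 122.6 in CON and 124 in DKO with detection p-values of 0.733 and 0.622, so its level could not be read from this probe. No fold is given for these 5 genes.

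Most enzymes of sterol synthesis were slightly higher on the DKO array, and most genes of fatty acid supply and desaturation were slightly lower. In the sterol branch 10 of 16 detected genes were higher and 5 lower, with a median difference of 0.14, and the remaining gene read the same on both arrays. In the fatty acid branch 4 of 12 were higher and 8 lower, with a median difference of -0.32. Among all 8472 detected genes, 47.1% were higher and 52.6% lower, and the median was -0.02. The sterol median lay 0.45 above the fatty acid median. No detected member differed by 2-fold, a size that 1.05% of all genes reached upward and 1.39% downward. At the smaller size of 1.5-fold, 1 sterol gene was higher and 0 were lower, and in the fatty acid branch 1 was higher and 2 were lower, against 6.09% and 7.37% of all genes. That 1 higher fatty acid gene was Srebf1, which was detected in DKO only and whose bound of 1.33-fold falls short of this size. The central 95% of all genes ran from -0.84 to 0.80, and by brightest probes Acss2 alone lay outside that range, which few genes leave by its definition. The quartiles of all genes were -0.26 and 0.21. The fatty acid median lay below the lower quartile, and the sterol median lay between them. As a yardstick, the spread among detected probes of 1 gene had a pooled SD of 0.30 over 2047 genes, which is as large as many of the members' differences. The plot of cumulative differences sets both branches beside all genes.

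**Figure D1:**
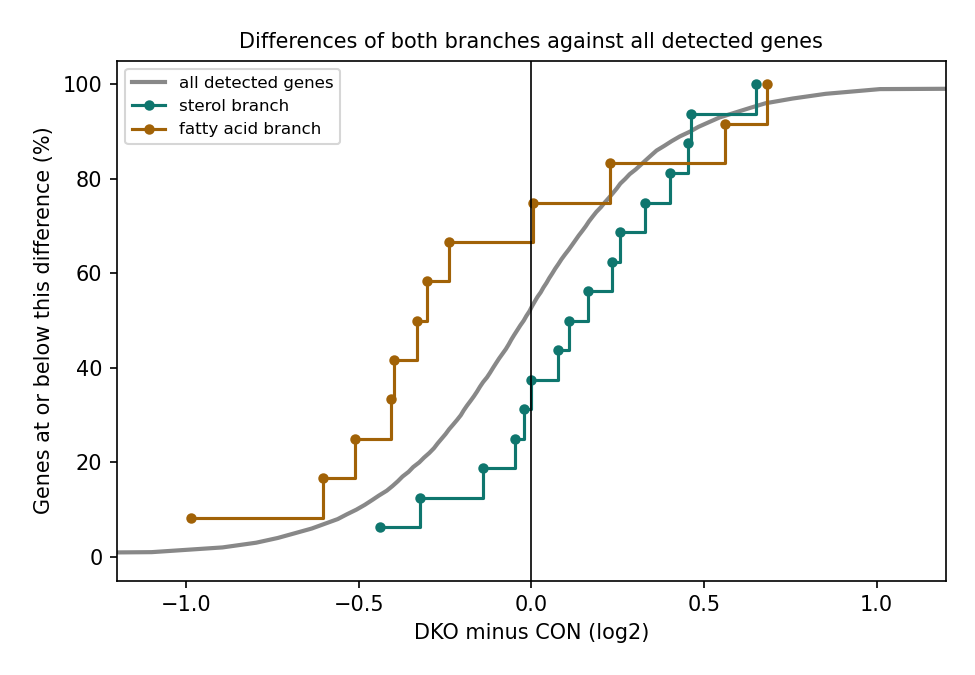
Cumulative share of genes (y axis, %) at or below each DKO minus CON difference (x axis, log2), for all detected genes (grey line) and for the 16 sterol and 12 fatty acid genes detected (1 point per gene). The sterol steps lie mostly to the right of the grey line and the fatty acid steps to its left up to its upper part, with medians of 0.14 and -0.32.

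The early sterol steps, from acetyl units to farnesyl diphosphate, were mixed. Hmgcs1, which makes hydroxymethylglutaryl-CoA, read 14.02 in CON and 13.88 in DKO, a difference of -0.14. Its raw signals of 17260.5 and 14719.4 stood near the top of the array, where the highest was 25756.4 in CON, and whether so bright a signal understates a difference was not tested. Mvd, the decarboxylase that yields isopentenyl diphosphate, read 8.98 in CON and 9.44 in DKO and was 1.37-fold higher. Fdps, which makes farnesyl diphosphate, read 11.96 and 12.21, and Pmvk, the phosphomevalonate kinase, read 8.04 and 8.28. Idi1, the isomerase between them, read 5.64 and 5.61 and was thus nearly level. Of the 5 detected genes of this segment 3 were higher and 2 lower, with a median of 0.23, and none reached 1.5-fold.

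Enzymes from squalene to cholesterol were mostly higher, with 6 of 8 detected genes higher, 1 lower, 1 level and a median of 0.25. Dhcr7, the reductase that makes cholesterol from 7-dehydrocholesterol, had the highest difference of the branch. It read 8.05 in CON and 8.70 in DKO and was 1.57-fold higher, and 4.66% of all detected genes had a higher difference. 7-dehydrocholesterol is also the substrate from which sunlight forms vitamin D in skin. Ebp, a sterol isomerase, read 9.62 and 10.08 and was 1.38-fold higher. Lss, which closes squalene epoxide into lanosterol, read 8.67 and 9.07 and was 1.32-fold higher. These 3 genes and Mvd were the 4 highest of the sterol branch. Sqle, the squalene epoxidase and a rate-limiting step of the pathway, read 11.28 and 11.61 by its brighter probe and 9.00 and 9.56 by the other, so both probes were higher in DKO, by 0.33 and 0.57.

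The remaining enzymes of this segment differed by little. Msmo1, listed on the array as Sc4mol and acting on the methyl groups of lanosterol, differed by 0.16. Hsd17b7, a sterol ketoreductase, differed by 0.11, and by -0.0015 under median scaling, a setting that moved the median of all genes by -0.11. Cyp51, the lanosterol demethylase, differed by -0.05. Nsdhl, a sterol dehydrogenase, read 7.84 on both arrays by its brightest probe, while its other 3 detected probes differed by -0.12, -0.17 and -0.28. Ebp and Nsdhl are X-linked. Without them the sterol branch held 9 higher and 5 lower genes. Its median stayed at 0.14, which was fixed in advance, since Ebp lay above the median and Nsdhl below it. The part of sex in the differences of the other members was not tested.

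The promoters of 4 sterol genes are shown because Hmgcs1 was the single member whose window held the sterol regulatory element searched for, and because Ebp, Mvd and Lss had the highest differences among sterol enzymes with 1 listed start. The choice was made after their values were seen. Each is the 250 bases before the gene's start in RefSeq's GRCm38.p6 annotation, 5′ to 3′ on the gene's strand, with matches in capitals to TCACNCCAC (the sterol regulatory element bound by SREBPs), CCAAT (the NF-Y box), GGGCGG (the Sp1 box) or CACGTG (an E-box), on either strand.
Hmgcs1, chr13:119690101-119690350, plus strand: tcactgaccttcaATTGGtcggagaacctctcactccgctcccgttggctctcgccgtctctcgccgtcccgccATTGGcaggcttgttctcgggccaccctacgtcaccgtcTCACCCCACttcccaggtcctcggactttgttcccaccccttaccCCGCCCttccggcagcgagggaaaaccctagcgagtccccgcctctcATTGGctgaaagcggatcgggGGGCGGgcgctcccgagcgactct
Ebp, chrX:8193513-8193762, minus strand: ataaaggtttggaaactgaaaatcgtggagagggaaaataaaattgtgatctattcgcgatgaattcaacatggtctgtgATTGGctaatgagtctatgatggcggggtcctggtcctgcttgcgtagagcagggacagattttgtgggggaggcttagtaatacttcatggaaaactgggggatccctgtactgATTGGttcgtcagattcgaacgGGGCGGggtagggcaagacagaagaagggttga
Mvd, chr8:122443423-122443672, minus strand: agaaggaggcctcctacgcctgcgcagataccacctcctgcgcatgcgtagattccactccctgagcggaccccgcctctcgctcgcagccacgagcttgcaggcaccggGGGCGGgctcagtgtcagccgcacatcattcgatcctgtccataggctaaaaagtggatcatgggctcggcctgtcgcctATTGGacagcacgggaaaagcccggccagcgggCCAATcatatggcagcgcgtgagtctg
Lss, chr10:76531355-76531604, plus strand: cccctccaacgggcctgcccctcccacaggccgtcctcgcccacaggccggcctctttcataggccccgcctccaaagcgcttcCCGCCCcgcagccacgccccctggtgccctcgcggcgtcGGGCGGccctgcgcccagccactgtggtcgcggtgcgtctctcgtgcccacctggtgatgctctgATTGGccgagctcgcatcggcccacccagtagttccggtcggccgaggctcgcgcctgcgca
In Hmgcs1 the element TCACCCCAC began 137 bases before the start. Ebp and Mvd each held 2 NF-Y boxes and 1 Sp1 box, and Lss held 1 NF-Y box and 2 Sp1 boxes.

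Promoter windows were found for 16 of the 20 sterol genes, 19 windows in all. All 16 genes had at least 1 window with an NF-Y box, which made 84.2% of the windows, against 33.8% of all 32851 windows and 35.3% of windows of genes detected on these arrays. The Sp1 box stood in 84.2% of the sterol windows, against 32.7% of all and 57.9% of windows of detected genes. The E-box stood in 4 of the 19 sterol windows (21.1%), in 6.02% of all windows and in 8.29% of those of detected genes. The strict sterol regulatory element was rare everywhere, at 1.05% of all windows and 1 of the sterol windows. For the fatty acid branch 13 genes had 16 windows, of which 56.2% held an NF-Y box, 50% an Sp1 box, 6.25% an E-box and 0 the sterol regulatory element, so the shares with an Sp1 box and an E-box lay below those of detected genes. NF-Y and Sp1 are known to act together with SREBPs at promoters of sterol genes. A match is a description of these letters and no evidence of binding in epidermis.

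Among the genes of sterol sensing and transport 1 was higher and 2 were lower by their brightest probes. Srebf2, the gene of SREBP-2 and listed on the array as Srebp2, read 9.76 in CON and 9.44 in DKO, 1.25-fold lower. Stard4, a carrier that moves cholesterol between membranes, read 9.35 and 8.92, 1.36-fold lower, and was the lowest detected gene of the branch. Insig1, which retains the SREBPs when sterols are plentiful, was higher by each of its 3 detected probes, but by different amounts. Its brightest probe read 7.25 and 7.33, a difference of 0.08 that was -0.02 under median scaling, while its other detected probes differed by 0.73 and 0.48. The average over its detected probes was 0.43. The sterol enzymes alone, without these 3 genes, had a median of 0.23 over 13 genes, with 9 higher and 3 lower. That subset leaves out Stard4 and Srebf2, the 2 lowest genes of the branch.

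**Figure D2:**
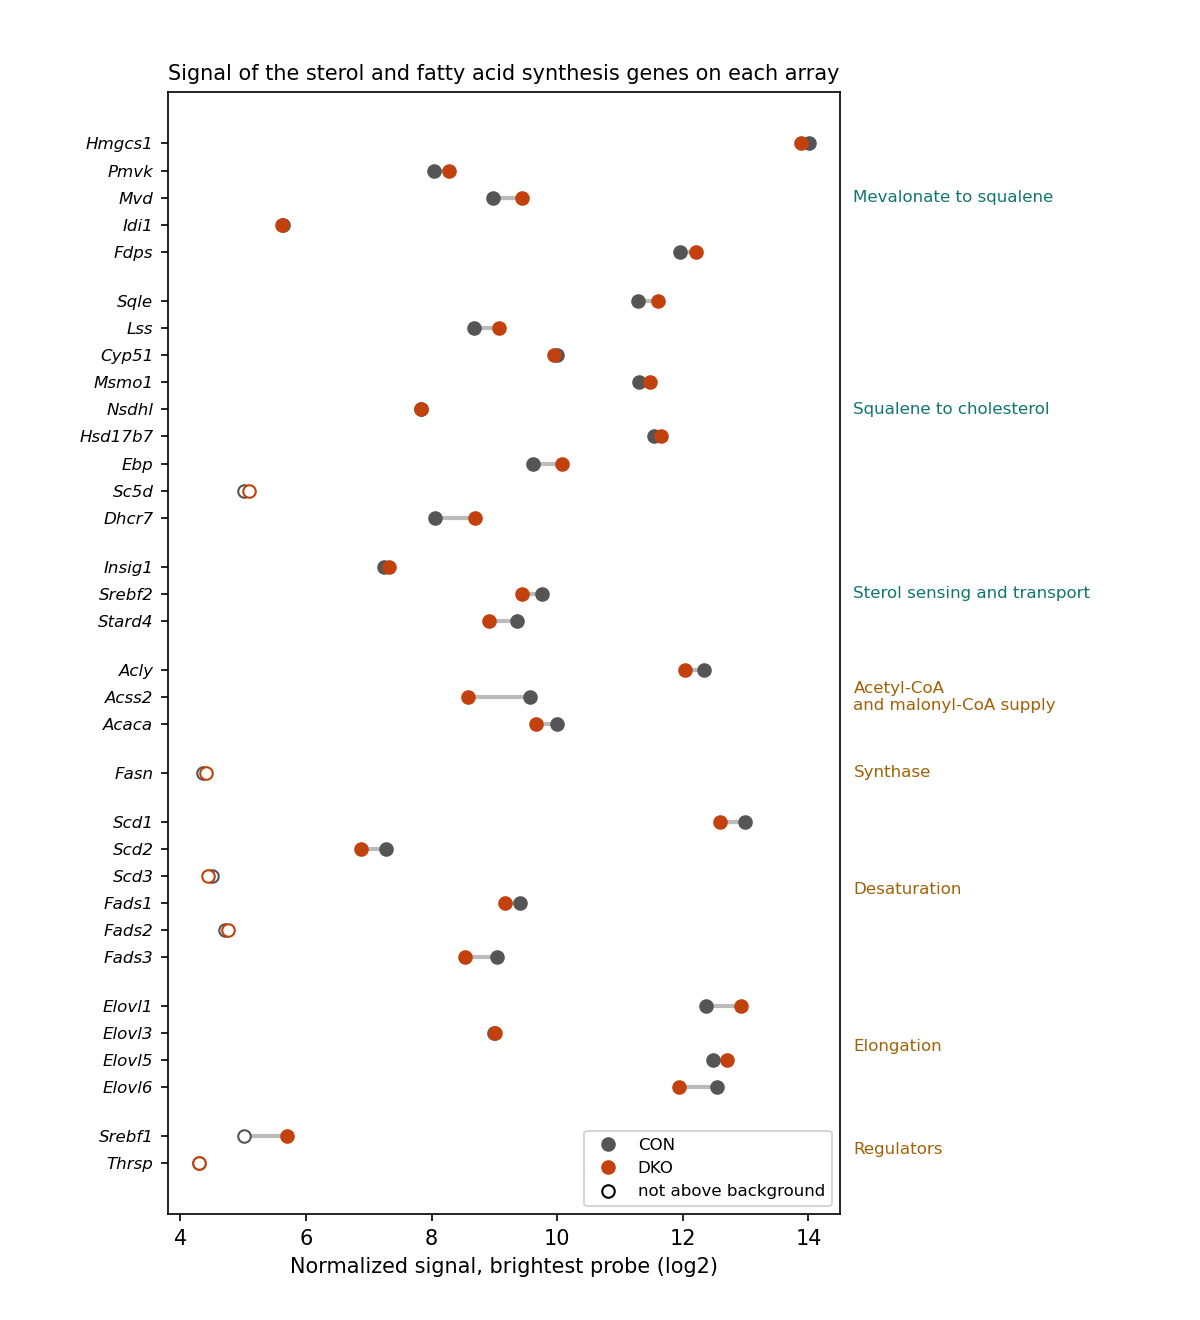
Normalized signal (x axis, log2) of the brightest probe of each of the 33 members with a probe, on the CON array (grey) and the DKO array (orange), grouped by role in the pathway. Open circles were not well above background. Acss2 has the widest gap, from 9.57 in CON to 8.58 in DKO, and Dhcr7, Elovl6 and Elovl1 follow among members detected on both arrays.

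Every detected gene that supplies acetyl-CoA or malonyl-CoA was lower on the DKO array. Acss2, listed as Acas2, makes acetyl-CoA from acetate in the cytosol and nucleus, and it read 9.57 in CON and 8.58 in DKO, 1.98-fold lower. This was the largest difference of any member, and 1.46% of all detected genes had a lower one. A dimmer Acss2 probe, below the detection threshold on both arrays, differed by -0.68. Acly, which makes acetyl-CoA from citrate, read 12.33 and 12.03, a difference of -0.30. Acaca, the carboxylase that makes malonyl-CoA, read 9.99 and 9.66, a difference of -0.33. Under median scaling Acss2 was past 2-fold, at -1.12.

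Desaturases were lower throughout, with 4 of 4 detected genes lower, a median of -0.40 and none at 1.5-fold. Scd1, the stearoyl-CoA desaturase on which sebaceous glands depend, read 13.00 in CON and 12.60 in DKO and was 1.32-fold lower. Scd2, its close relative, read 7.28 and 6.88, also 1.32-fold lower. The Scd genes are near-identical copies in places, and whether their probes tell them apart was not tested. Fads3, which desaturates sphingoid bases, read 9.05 and 8.54 and was 1.42-fold lower. Fads1, which acts on polyunsaturated fatty acids, read 9.41 and 9.17, the smallest difference of the 4 genes.

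Elongases did not share a direction. Elovl6, which extends saturated fatty acids of medium length and is a classical SREBP-1c target, read 12.55 in CON and 11.94 in DKO and was 1.52-fold lower. Elovl1, which makes very long saturated chains of the kind that ceramides carry, went the other way, from 12.37 to 12.93, and was 1.47-fold higher. All 4 Elovl1 probes were detected and higher in DKO, by 0.56, 0.88, 0.73 and 0.52. Elovl5, which extends polyunsaturated chains, read 12.48 and 12.71, 1.17-fold higher. Elovl3, an elongase of skin and sebaceous glands, read 9.00 on both arrays, with a difference of 0.0039 that was -0.14 under median scaling. Leaving out the elongases, of which 3 were higher and 1 lower, shifts the fatty acid branch downward by that choice. The branch without them had a median of -0.36 over 8 genes, 7 of them lower. The exception was Srebf1.

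Srebf1, the gene of SREBP-1, was detected on the DKO array only. Its brightest probe read 5.01 in CON, not well above background, and 5.69 in DKO. On this background-corrected scale only, it was at least 1.33-fold higher, taking the lowest detected CON signal of 5.28 as the floor. The raw signals were 144.6 and 160.3, and its other probe, undetected on both arrays, differed by -0.02. The difference of 0.68 shrank to 0.19 without background correction and to 0.26 in the authors' deposited table. The higher reading of this gene therefore rests on 1 dim probe.

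**Figure D3:**
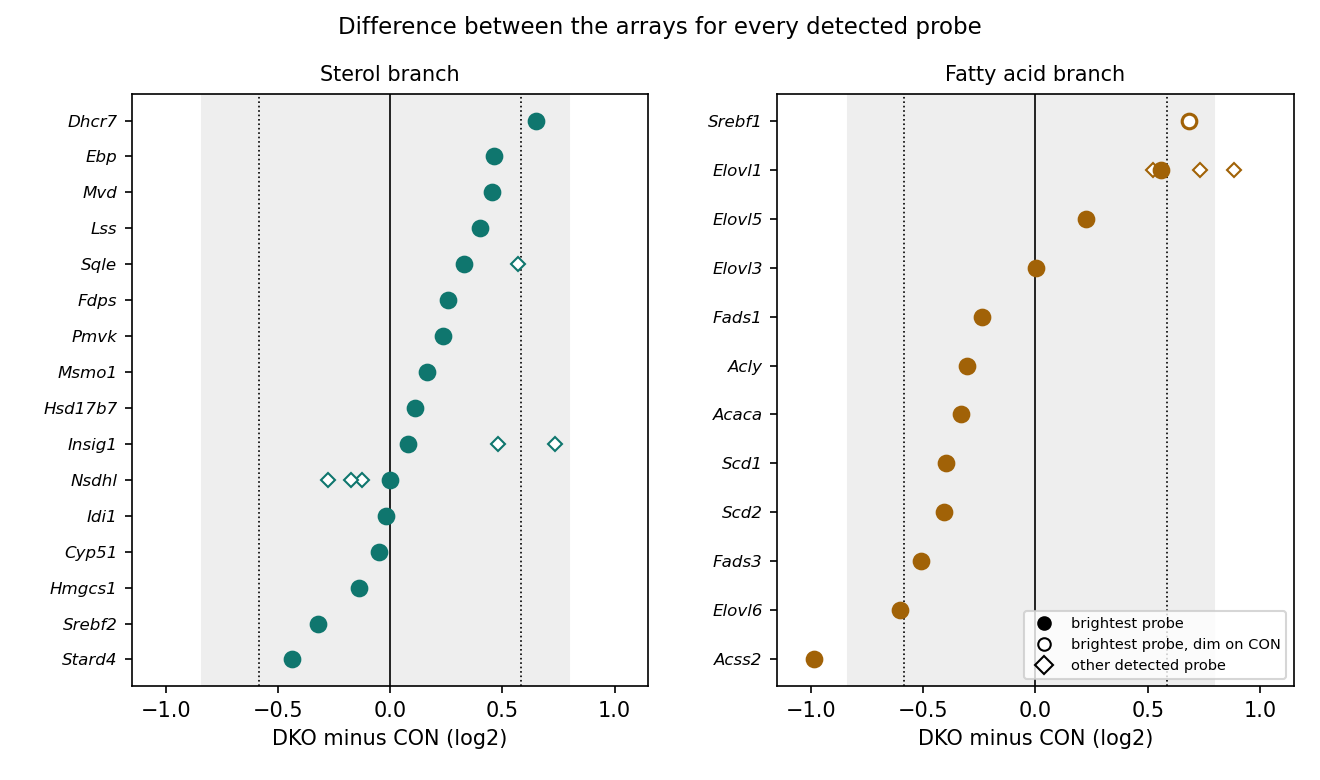
DKO minus CON difference (x axis, log2) of every detected probe, by gene, for the sterol branch (left) and the fatty acid branch (right). Filled circles are the brightest probe, the open circle is Srebf1, which was dim on CON, and diamonds are other detected probes. Dotted lines mark 1.5-fold and the grey band the central 95% of all detected genes, from -0.84 to 0.80. Elovl1 has 4 probes between 0.52 and 0.88, and Insig1, with detected probes from 0.08 to 0.73, shows how far probes of 1 gene can lie apart.

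Other genes of the same pathways lay near 0 by their medians in both branches. Of 6 detected genes of sterol synthesis and sensing 3 were higher and 3 lower, with a median of -0.03. Acat2, which makes acetoacetyl-CoA, differed by -0.46, and Insig2, the relative of Insig1, by 0.36, with its other probes at 0.28 and 0.25. Scap, which escorts the SREBPs out of the endoplasmic reticulum, differed by -0.18. Mbtps1, a protease that cleaves them in the Golgi, differed by 0.23, and its other detected probes by 0.02 and 0.33. Of 17 other genes of fatty acid synthesis, elongation and activation 9 were higher and 8 lower, with a median of 0.02. Acsl1, which activates fatty acids to their CoA esters, read 8.62 in CON and 9.51 in DKO, a difference of 0.89. The elongase Elovl7 read 5.37 and 6.20, a difference of 0.83, but its CON signal was dim, near the lowest detected there, 5.28. Mid1ip1, which activates acetyl-CoA carboxylase, differed by -0.55, and Me1, which supplies NADPH, by -0.54.

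Side branches and sterol efflux were mixed. In the isoprenoid side branch 2 of 5 detected genes were higher and 3 lower, with a median of -0.32. Pdss1, for the side chain of coenzyme Q, differed by -0.64, Fntb, a farnesyltransferase subunit, by -0.39, Dhdds, for dolichol, by -0.32 and Coq2 by 0.30. Among genes of efflux and the liver X receptors (LXRs) 3 of 5 were higher and 2 lower, with a median of 0.03. Nr1h2, the gene of LXR beta, differed by 0.51, with its other probe at 0.56. Nr1h3, the gene of LXR alpha, was not well above background in DKO and was at least 1.24-fold lower, and the transporter Abcg1 was not well above background in CON and was at least 1.09-fold higher. Soat1, which esterifies cholesterol, differed by -0.10.

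Markers of sebocytes and of the hair follicle were lower on the DKO array too, and in pooled tissue fewer cells of a type cannot be told apart from less RNA per cell. Of 13 sebocyte markers 9 were detected, with a summed linear signal of 22163 in CON and 18467 in DKO, and 7 of the 9 were lower with a median of -0.32. Among them Krt79 differed by -0.58, Plin2 by -0.38, Pparg by -0.35 and Dgat2 by 0.69, while Awat2, a wax synthase, differed by -0.24 and Mc5r by 0.20. Krt79, which also marks the upper follicle, was the brightest of them, at 13.76 in CON and 13.17 in DKO. The fall in the sum was carried by Krt79, and the summed signal of the other sebocyte markers was not lower. Hair follicle markers were lower by more, with 11 of 12 detected markers lower, a median of -1.23 and a summed signal of 30358 in CON and 10860 in DKO. Markers of other cells differed too. By brightest probes all 4 detected melanocyte markers were lower, with a median of -0.38, and 4 of 6 T cell markers were lower, with a median of -0.43. All 5 detected Langerhans cell markers were higher by that measure, with a median of 0.31. Other detected probes did not all share these directions. The other Pmel probe differed by 0.26, those of Tyrp1 by 0.13 and -0.10, and those of H2-Ab1 by -0.04, 0.38 and 0.15. The part of any of these marker groups in the differences of the members was not tested. Adipocyte markers were nearly absent. Adipoq, Fabp4 and Plin1 were undetected on both arrays, and of 9 markers only Lipe was detected, in CON, with a normalized signal of 41.7 in CON and 25.6 in DKO. Of 8 dermal fibroblast markers 3 were detected, with a summed signal of 1135 in CON and 1427 in DKO, and all 3 were higher, with a median of 0.24. Sparc differed by 0.41 and Dcn by 0.13, with the other Dcn probe at -0.15, and Fbn1 was detected in DKO only. Col1a1, Col1a2 and Col3a1 were not well above background by their brightest probes.

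The order of the branch medians was the same under each processing setting tried. The sterol median ran from 0.02 to 0.20 and the fatty acid median from -0.43 to -0.15. Median scaling moved the median of all genes by -0.11, to -0.13, and put 35.6% of all genes higher and 64.4% lower. Under it the sterol branch held 8 higher and 8 lower genes, but its median remained 0.15 above that of all genes, against 0.16 in the main setting, and 12 sterol genes lay above the median of all genes in both settings. In the authors' deposited table the medians were 0.12 and -0.26. All settings reuse the same pair of arrays.

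**Figure D4:**
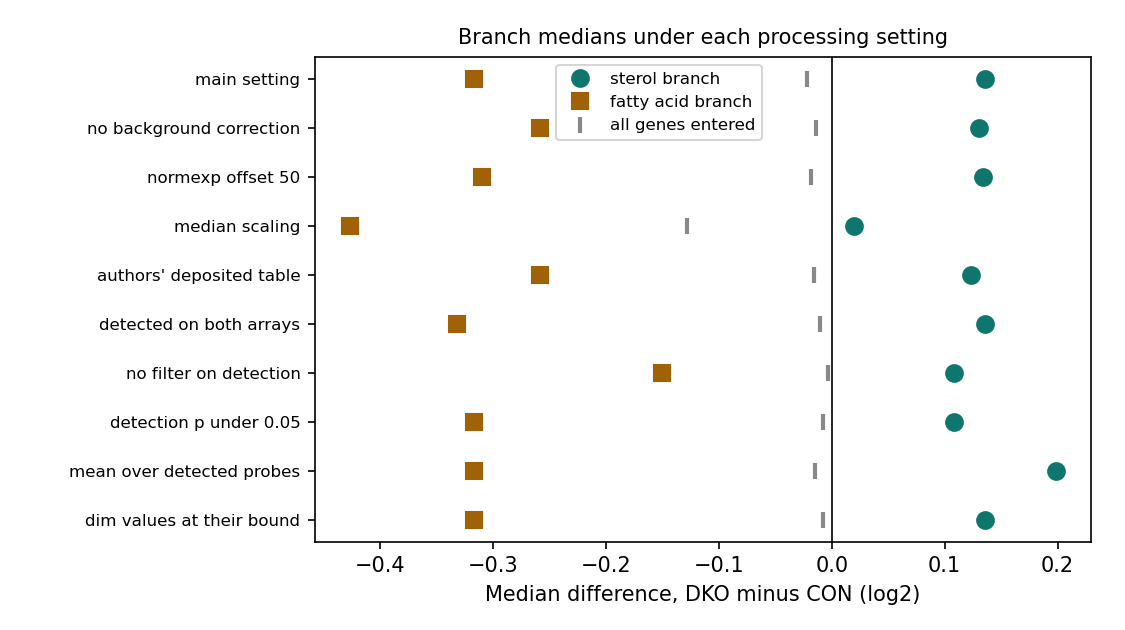
Median DKO minus CON difference (x axis, log2) of the sterol branch (circles), the fatty acid branch (squares) and all genes entered (grey bars) under the main setting and 9 alternatives (y axis). The sterol median lies above and the fatty acid median below that of all genes in each row, and median scaling shifts all 3 to the left.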

How the data were processed

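Each group was 1 Illumina array of RNA combined from 3 mice. Per the submitters' processing notes the arrays were read with GenomeStudio 2011.1. The authors deposited a table of raw intensity without background subtraction, a detection p-value beside each intensity, and a table of normalized intensity on a linear scale. Its normalization method is not given in the sources read. A header line assigns the array columns to CON and DKO, per the file headers. From the raw intensity, limma 3.58.1 in R 4.3.3 corrected background by normexp (offset 16, negative-control parameters inferred from the detection p-values), then quantile-normalized and took log2, and the steps were tested on simulated data. Precision is limited by the number of arrays. Probes were named by gene identifier (16938), accession (7420), current symbol (465) or unique older symbol (552) through RefSeq's GRCm38.p6 gene table, and 322 kept the array's name. A gene was entered when its brightest probe was detected on at least 1 array. Where 1 array was not well above background, a fold is a bound against the lowest signal detected on that array or the probe's own, whichever is higher. Every detected member is named, with up to 4 genes of each other pathway list by absolute difference, plus marker genes and further fatty acid genes picked after their values were seen. Some genes of the list of other sterol genes are not reported here and are left out of its counts. The members and lists were chosen with earlier results of these data known. Alternatives were other background corrections, scalings, detection filters and probe summaries, and the removal of X-linked members, which was chosen after seeing the data. The medians of the sterol enzymes alone and of the fatty acid branch without elongases were not among the planned results.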

Additional observations from a re-analysis of the deposited data

How the results depend on the processing

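No paired analysis was possible because each group has 1 array, and no replicate could be left out. Values below compare with 10 higher and 5 lower sterol genes (1 at 1.5-fold, higher), 4 higher and 8 lower fatty acid genes (1 and 2 at 1.5-fold), medians of 0.14 and -0.32, and 0.45 between them. Without background correction and in the authors' deposited table, 0 members of either branch were 1.5-fold higher and the gap between medians was 0.39 and 0.38, and in that deposited set a single fatty acid gene (1) was 1.5-fold lower. With an offset of 50, with detection on both arrays, or with dim values at their bound, 0 fatty acid genes were 1.5-fold higher, and with probes averaged 2 were and the gap was 0.52. Median scaling gave 8 lower sterol genes, 0 of them 1.5-fold higher, medians of 0.020 and -0.43, and 1 fatty acid gene 2-fold lower. Without the detection filter 7 fatty acid genes were higher, their median was -0.15 and the gap 0.26, since 4 fatty acid genes and 1 sterol gene at background enter. Of 251 alternative values of single members 247 lay within the probe SD of 0.30 of the main value. The other 4 were Srebf1 at 0.19, 0.37 and 0.26, and Insig1 at 0.43. The sign held in each alternative for 24 of 28 members, and it did not for Elovl3, Hsd17b7 and Insig1. Nsdhl, the remaining member, had a main difference of 0 and so no sign to hold. Many of the alternative values could not move. Other detection filters leave the brightest-probe difference of a detected member as it was, and bounds for dim values alter Srebf1 only. Averaging alters only genes with further detected probes. The counts of values near the main value and of signs held are raised by this. Dim signals limit Srebf1, Fasn and the other undetected members.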

Other observations

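Me1, the cytosolic malic enzyme that supplies NADPH for fatty acid synthesis, was measured by a pair of probes that went opposite ways. The brighter read 8.84 in CON and 8.31 in DKO, a difference of -0.54. The dimmer was not well above background in CON and read 6.53 in DKO, so it was at least 2.38-fold higher. Both carry the same accession apart from its version on the array. The files do not say which transcript each probe reads, and the lower value given above for Me1 is that of the brighter probe.

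Slc25a1, the carrier that exports citrate from mitochondria for Acly, likewise differed by -0.43 by its brighter probe and by 0.00 by the other. Acsl3, an acyl-CoA synthetase of lipid droplets, differed by -0.43 and Mlycd, which breaks down malonyl-CoA, by -0.46, both lower. The enzymes that complete each elongation cycle were mixed. Tecr, the reductase of that cycle, differed by 0.23, 0.22 and 0.14 by its 3 probes, Hsd17b12 by 0.21, and the dehydratases Hacd1, Hacd2, Hacd3 and Hacd4 by -0.02, -0.06, -0.11 and 0.39. The genes named here were picked after their values were seen, from the list of other fatty acid genes whose counts are given above. Elovl4, the elongase that makes the longest chains of epidermal acylceramides, read 13.83 in CON and 13.89 in DKO.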
